A study of Mus musculus with 32 samples.

Results

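The genes described here are the mitochondrial ribosomal proteins, taken as the protein-coding genes of the count table whose mouse symbol begins with Mrpl or Mrps and a digit. They number 69 of 27728 genes, or of 15424 protein-coding genes, with 45 named for the large subunit (Mrpl) and 24 for the small subunit (Mrps). GENCODE M21 lists 78 such genes. The other 9 (Mrps9, Mrps14, Mrps16, Mrps21, Mrps36, Mrpl18, Mrpl33, Mrpl35 and Mrpl42) and 3 pseudogenes with such symbols were not analysed here. The RNA came from mouse hematopoietic progenitors, sorted as Lin- cKit+ Sca1- cells, in 32 libraries of 9 groups, and the study asked how much of the splicing factor U2af1 such cells need.

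Fetal liver at E14.5 gave 15 untreated libraries, which the labels divide into batch A and batch B. Batch A held the flox control, U2af1(flox/flox) without Cre (n = 3), the heterozygous deletion, Vav1-Cre with U2af1(wt/flox) (n = 3), and the homozygous deletion, Vav1-Cre with U2af1(flox/flox) (n = 3). It also held 1 library with Vav1-Cre alone, a second such library was in batch B, and all 4 libraries with Vav1-Cre and U2af1(wt/S34F) were in batch B. Vav1-Cre deletes floxed alleles in blood cells. Both deletions thus differed from the flox control in Vav1-Cre as well as in U2af1, and these cannot be told apart. Between the 2 deletions Vav1-Cre was shared. S34F names a mutant form of U2AF1. Adult bone marrow gave 17 libraries, and every adult mouse carried Mx1-Cre, rTA and tgU2AF1(WT), a wild-type U2AF1 transgene induced by doxycycline. The adult control had U2af1(wt/wt) and was untreated (n = 3). The other adults had U2af1(flox/S34F) and received pIpC, which induces Mx1-Cre in blood cells but also in other tissues, together with doxycycline chow. The dose was 1250 ppm in 4 libraries, 2500 ppm in 6 and 10000 ppm in 4. The dosed adults thus differed from the untreated control in genotype, pIpC and doxycycline together, and these cannot be told apart. Doxycycline belongs to the tetracycline antibiotics, which bind bacterial ribosomes and are known to inhibit mitochondrial translation. No group received doxycycline alone. The labels give no ages for the adults and do not say whether the libraries of a group came from separate animals, so p-values measure the spread between these libraries.

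Mitochondrial ribosomes translate the few respiratory chain subunits encoded in mitochondrial DNA. Their ribosomal RNAs come from the mitochondrial genome, but all their proteins are encoded in the nucleus, made in the cytosol and imported. The large subunit holds the site of peptide bond formation and the exit tunnel, and the small subunit decodes the mRNA. Many members have bacterial counterparts, while others are found only in mitochondria. Despite their symbols, the Mrps18a and Mrps30 proteins are built into the large subunit of the mammalian ribosome. They are counted here by symbol.

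The members were short genes. Their protein-coding transcripts had a median length of 1047 bases, against 2114.5 bases over the protein-coding genes of the table, and their transcripts held a median of 4 introns (1 to 11) against 8. They lay on 17 chromosomes, with 11 members on chromosome 11 and 7 on chromosome 17 of GRCm38. Exons of 31 members overlapped those of another gene, on the same strand for 7 and on the other strand for 27. The use of strand in counting is not given in the sources used here, so reads of those members cannot be told from reads of their partners. Among the 38 members without such an overlap, the median difference in each comparison was close to that of all 69, as given where it matters.

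Promoters are shown for the 3 members with the largest rise in the homozygous deletion, because they carry the main fetal result. These are Mrpl17, with a bacterial counterpart near the exit tunnel, Mrpl44, whose fold resembles that of ribonuclease III, and Mrps23, a small subunit protein. Each sequence runs from 250 bases before the RefSeq start to 50 bases after it, 5′ to 3′ on the gene's strand, in the GRCm38.p6 build, and was taken from RefSeq. Capitals mark matches on either strand to the motif of NRF1 (GCGC, any 1 base, then TGCGC) or to CCGGAAG, a motif of ETS factors such as GABP. Both factors are known to bind promoters of many nuclear genes for mitochondrial proteins. The windows are chr7:105811038-105811337 on the minus strand for Mrpl17, chr1:79775768-79776067 on the plus strand for Mrpl44 and chr11:88204138-88204437 on the plus strand for Mrps23.
Mrpl17: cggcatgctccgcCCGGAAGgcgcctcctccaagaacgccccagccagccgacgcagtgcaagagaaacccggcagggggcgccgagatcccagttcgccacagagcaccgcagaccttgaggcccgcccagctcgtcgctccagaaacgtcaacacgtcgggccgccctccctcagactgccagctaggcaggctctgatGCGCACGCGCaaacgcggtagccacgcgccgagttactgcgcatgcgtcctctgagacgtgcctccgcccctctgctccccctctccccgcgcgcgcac
Mrpl44: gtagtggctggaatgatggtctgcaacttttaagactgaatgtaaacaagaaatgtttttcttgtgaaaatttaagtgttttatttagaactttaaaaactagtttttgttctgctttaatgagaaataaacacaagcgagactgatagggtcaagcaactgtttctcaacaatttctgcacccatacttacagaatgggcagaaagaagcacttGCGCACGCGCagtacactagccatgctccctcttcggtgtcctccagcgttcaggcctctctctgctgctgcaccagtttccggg
Mrps23: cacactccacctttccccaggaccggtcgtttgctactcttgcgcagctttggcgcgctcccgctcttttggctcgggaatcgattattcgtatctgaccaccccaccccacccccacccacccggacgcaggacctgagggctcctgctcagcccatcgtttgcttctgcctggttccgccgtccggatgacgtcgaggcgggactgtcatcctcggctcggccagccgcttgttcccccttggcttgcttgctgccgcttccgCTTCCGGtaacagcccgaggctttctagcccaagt
Mrpl17 held 1 match to each motif, Mrpl44 held 1 match to the NRF1 motif, and Mrps23 held 1 match to the ETS motif. Of the 69 members, 60 had a promoter in the RefSeq table. The NRF1 motif was found in 11 of the 60 (18.3%), against 4.60% of all 32851 promoters in the table. The ETS motif was found in 21 (35.0%) against 8.86%, and AAGATGGCG, the motif of YY1, in 6 (10%) against 1.40%. At least 1 of the 3 motifs stood in 33 of the 60 member promoters (55%), against 13.6% of all promoters, and no overlap between motifs was removed. A match describes the letters of the window and is not evidence of binding.

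Library totals, in units of 1e+06 counts, ran from 26.6 to 71.3. Defining progenitor transcripts were abundant in all groups: mean Kit ran from 287 CPM (counts per 1e+06 counts of the library) in the homozygous deletion to 619 in the 10000 ppm group, and mean Myb from 742 to 1242. The U2af1 transcript was not analysed here and could not serve to check genotypes, so loss of an allele below means the labelled genotype. The submitters' design text warns of possible batch effects among the fetal libraries. Markers of other cells differed between groups. Summed CPM of the neutrophil granule genes Ltf, Camp and Ngp ran from 134 to 317 in flox controls, from 101 to 158 after loss of 1 allele and from 665 to 1313 after loss of both. In adults the same sum was 939 to 9298 in the untreated control, 607 to 1033 at 1250 ppm, 1092 to 10686 at 2500 ppm and 652 to 35072 at 10000 ppm. Summed CPM of 9 hepatocyte genes ran from 109 to 629 in flox controls, from 54.4 to 127 after loss of 1 allele and from 16.9 to 39.6 after loss of both. Alb was at 0 in every adult group.

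All 69 members were detected, and together they took 0.475 to 0.533% of the counts of a fetal library and 0.276 to 0.410% of an adult one. To compare genes, CPM was divided by the median length in kb of the gene's protein-coding transcripts. On this scale the flox control was led by Mrpl54 (187 ± 6.28 CPM per kb, SD, n = 3), a protein found only in mitochondria, and Mrpl12 (184 ± 6.98), which is also known to bind the mitochondrial RNA polymerase. Mrpl20 (172 ± 0.911), Mrpl34 (154 ± 4.09) and Mrpl30 (153 ± 4.43) followed. Mrpl54 and Mrpl12 did not differ beyond their spread, nor did Mrpl34 and Mrpl30. At the bottom stood Mrps25 (9.25 ± 0.440), Mrpl1 (7.60 ± 0.401) and Mrpl53 (0.607 ± 0.223). In the untreated adult control the leading members were Mrpl20 (122 ± 16.1), Mrpl30 (115 ± 8.95), Mrpl12 (95.2 ± 16.0), Mrpl36 (85.5 ± 8.29) and Mrpl54 (82.7 ± 7.77), whose neighbours in this order overlapped within their SDs. The lowest there were Mrpl47 (8.19 ± 0.649), Mrps25 (6.23 ± 0.496) and Mrpl53 (0.761 ± 0.191). The order depends on the length used: over the union of all exons Mrpl12 ranked 1st in both groups, while Mrpl30 ranked 35th in the flox control and 28th in the adult control. Mrpl53 overlaps Gm42688 and Ccdc142os, so its low value is uncertain.

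Library by library, the members' summed level set fetal and adult progenitors apart. With the 32 libraries scaled together by edgeR's TMM factors (trimmed mean of M values), the sum was 5054, 5080 and 5056 CPM in the flox control. It was 5204, 4633 and 4660 CPM in the heterozygous deletion and 6027, 6051 and 5382 CPM in the homozygous deletion. On this scale the 3 homozygous libraries stood above all other fetal libraries, and the heterozygous libraries lay on both sides of the control. Unscaled, the separation was not complete. Homozygous replicate 4 (0.501% of counts) lay below heterozygous replicate 3 (0.508%) and S34F replicate 1 (0.511%). The Vav1-Cre library of batch A had 4986 CPM and that of batch B 4188 CPM, and the 4 S34F libraries had 4315, 4130, 4078 and 4290 CPM, on both sides of their batch B control. As an unscaled share of counts, the S34F libraries (0.481 to 0.511%) overlapped those of batch A, so their lower CPM appears only after scaling. The Vav1-Cre library of batch B had the lowest unscaled share of the fetal libraries (0.4746%), just under heterozygous replicate 4 (0.4748%). The adult sums were 3256, 3422 and 3790 CPM in the untreated control and 4163, 3939, 4091 and 4314 CPM at 1250 ppm. At 2500 ppm they ran from 3198 to 4027 CPM with a median of 3474, and at 10000 ppm they were 3170, 2844, 3451 and 3470 CPM. All 4 libraries at 1250 ppm exceeded all 4 at 10000 ppm. The large subunit's sum was 2.04 to 2.13 times that of the small subunit in the 15 fetal libraries and 2.12 to 2.27 times in the 17 adult libraries.

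**Figure D1:**
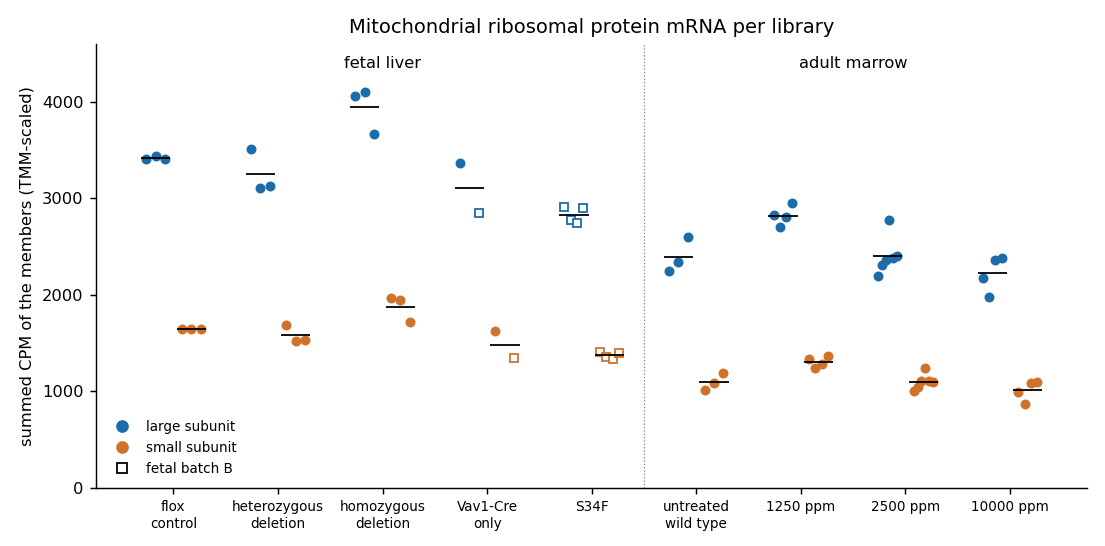
Summed CPM (y axis, TMM-scaled) of the 45 large subunit members (blue) and the 24 small subunit members (orange) in each of 32 libraries, by group (x axis); open squares are fetal batch B and black lines are group means. Both subunits are highest in the homozygous deletion and, among adults, at 1250 ppm.

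Loss of both U2af1 alleles was examined first, by setting the homozygous deletion against the flox control. Of the 69 members, 28 rose and 0 fell by edgeR's quasi-likelihood test at a Benjamini-Hochberg adjusted p under 0.05. The members' share of calls, 40.6%, was near the 41.0% of all 12678 genes tested. By direction, 18.5% of all genes were called higher and 22.4% lower. The large subunit had 19 of 45 members higher and the small subunit 9 of 24. The median difference was 0.17 on the log2 scale over the 69 members (0.18 over the 38 without an exon overlap), against -0.02 over all genes, and the members ranged from -0.27 to 0.63. No member reached a 2-fold difference.

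Mrpl17 had the largest rise. Its level was 75.6, 76.1 and 75.9 CPM without Cre, 88.8, 76.7 and 76.4 CPM after loss of 1 allele and 120, 131 and 111 CPM after loss of both. The homozygous libraries stood clear of the other 6. The log2 fold change against the flox control was 0.63 ± 0.07 (SE), with an adjusted p of 8.11e-05 by edgeR's test.

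Mrpl44 stood at 72.5, 67.0 and 66.1 CPM in the flox control and 98.8, 102 and 91.2 CPM in the homozygous deletion, a log2 fold change of 0.47 ± 0.06 (edgeR adjusted p = 0.000232). Mrps23 stood at 83.1, 83.0 and 81.6 CPM against 126, 117 and 109 CPM, a log2 fold change of 0.47 ± 0.06 (edgeR adjusted p = 0.000181). In both genes the groups did not overlap, as held upward for 37 of the 69 members and for 24.9% of all genes. Mrpl41, with 49.5, 50.8 and 49.6 CPM against 69.4, 73.1 and 68.8 CPM, rose by 0.46 ± 0.06 on the log2 scale. Mrpl43 rose by 0.43 ± 0.07, with its flox libraries at 77.2, 65.6 and 66.3 CPM and its homozygous libraries at 96.6, 100 and 90.8 CPM. Both are large subunit proteins found only in mitochondria, and exons of Mrpl43 overlap those of Twnk, the mitochondrial DNA helicase, on the other strand.

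Among members with a known special role, the decoding-site protein Mrps12 rose by 0.36 ± 0.07 on the log2 scale (64.6, 62.6 and 64.6 CPM against 88.2, 85.5 and 78.5). Mrps34, a small subunit protein whose loss causes mitochondrial disease, rose by 0.28 ± 0.08. Mrps18b and Mrps18c, which with Mrps18a are the mammalian counterparts of a single bacterial protein, rose by 0.20 ± 0.07 and 0.25 ± 0.08, and Mrps30 by 0.23 ± 0.06. Of 18 alternatives in processing or libraries, the call was lost in 10 for Mrps18b, 9 for Mrps18c and 6 for Mrps30. It was lost in 3 for Mrps34 and in 1 for Mrps12. Others did not pass the test. The log2 difference was 0.16 ± 0.07 for Mrpl12, 0.13 ± 0.07 for Mrps18a, 0.19 ± 0.08 for Mrps22 and 0.25 ± 0.10 for Mrpl32, a protein cleaved by the m-AAA protease in mitochondria. It was 0.06 ± 0.06 for Mrpl3, a peptidyl transferase center protein, -0.11 ± 0.06 for Mrps15, and -0.13 ± 0.06 for Mrpl58, which releases peptides from stalled ribosomes.

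**Figure D2:**
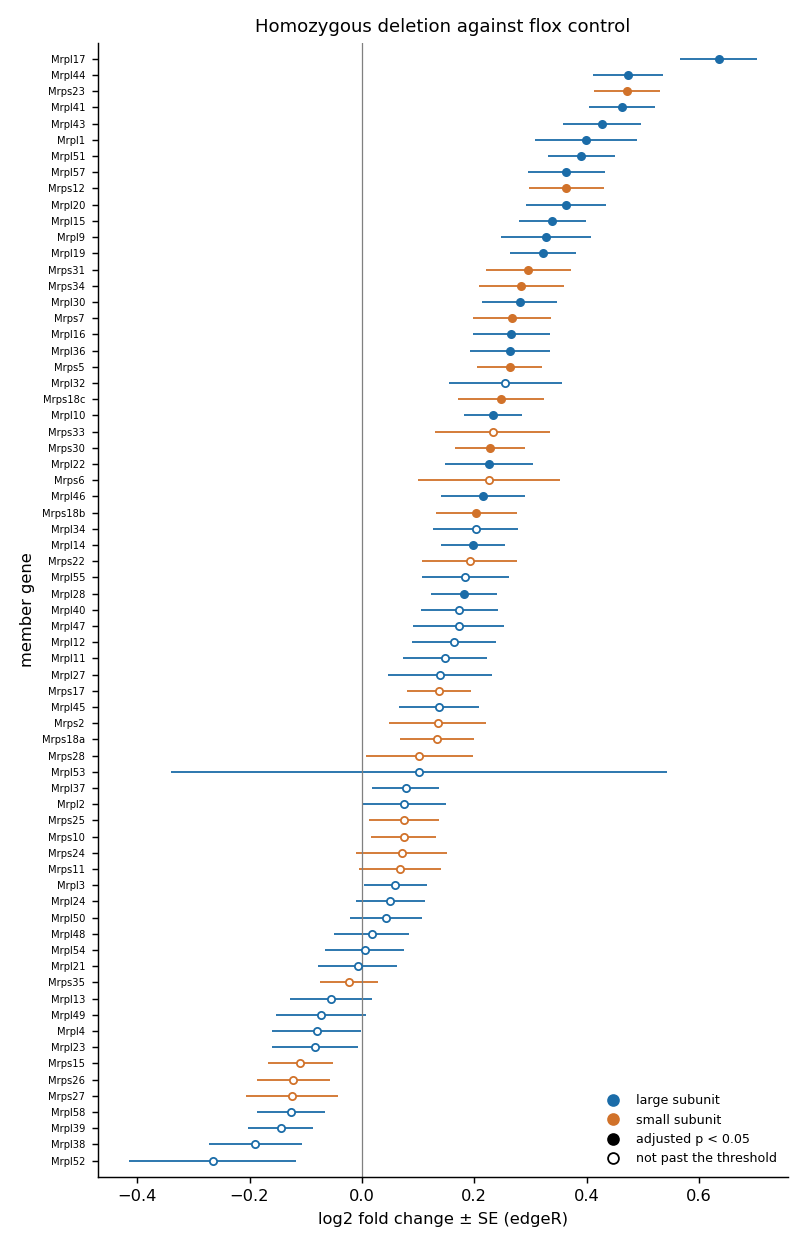
Log2 fold change with its SE (x axis) of each of the 69 members (y axis, ordered by value) in the homozygous deletion (n = 3) against the flox control (n = 3); filled points have an adjusted p under 0.05. The 28 filled points, of both subunits, all lie to the right of 0, with Mrpl17 the farthest at 0.63.

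Gene structure was set beside these differences. Of 30 members with at most 3 introns, 13 rose, with a median difference of 0.21 on the log2 scale, and of 27 members with 4 to 6 introns 13 rose, with a median of 0.17. Of 12 members with 7 or more introns 2 rose, with a median of -0.00283. Over the 69 members, Spearman's rho between the difference and the number of introns was -0.38 and that with transcript length -0.03, given as descriptions across genes of the same libraries. Promoters with the NRF1 motif belonged to 11 members, of which 6 rose (median 0.25), and 19 of the 49 without it rose (median 0.17). With the ETS motif 9 of 21 rose (median 0.20), and without it 16 of 39 (median 0.17). With the YY1 motif 1 of 6 rose (median 0.07), and without it 24 of 54 (median 0.19).

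The other genes of mitochondrial gene expression were called in both directions, where 18.5% of all genes were called higher and 22.4% lower. Of 15 mitochondrial aminoacyl-tRNA synthetases, which charge the tRNAs, 1 rose and 5 fell. Yars2 rose by 0.48 ± 0.07 on the log2 scale, while Lars2 fell by 0.67 ± 0.17, Vars2 fell by 0.39 ± 0.06 and Ears2 fell by 0.23 ± 0.08. Of 11 translation factors 4 rose and 0 fell, among them the release factor Mtrf1 (0.44 ± 0.10), the elongation factor Gfm1 (0.30 ± 0.08) and the initiation factor Mtif3 (0.24 ± 0.07). Of 27 factors of ribosome assembly and ribosomal RNA 1 rose and 3 fell: Rbfa rose by 0.29 ± 0.05, and Mettl17 fell by 0.58 ± 0.13, Mrm1 fell by 0.50 ± 0.09 and Eral1 fell by 0.33 ± 0.08. Of 10 genes of mitochondrial DNA replication and transcription, Polg (0.65 ± 0.07) and Ssbp1 (0.22 ± 0.06) rose and 0 fell. Gadd45gip1, a large subunit protein without an Mrp symbol, rose by 0.40 ± 0.09. The 13 mRNAs encoded in mitochondrial DNA were not analysed here.

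Neutrophil markers moved with this comparison (3 of 3 rose), since every homozygous library was higher than every flox library, and 8 of 9 hepatocyte markers fell. Of the other marker lists, B cell (4 of 4), megakaryocyte (4 of 4) and macrophage markers (6 of 7, 1 higher) fell and mast and basophil markers (3 of 4) rose, and their part in the result was not tested. Of 9 progenitor markers 3 rose, 2 fell and 4 were not called. Kit was at 287 CPM in the homozygous deletion and 542 CPM in the control, while Gata2 was at 521 CPM and 273 CPM. In bulk libraries, fewer cells of a type and less RNA per cell cannot be told apart. Differences between the 3 genotypes made up 90.7% of the variance of the neutrophil marker score over the 9 libraries, so score and genotype could hardly be separated. With that score as a covariate 0 members were called by edgeR (684 of all genes) and 11 had an unadjusted p under 0.05. The median log2 difference was 0.17, as without the score, while the median SE was 0.16 in place of 0.07. With the hepatocyte score 13 rose (1197 of all genes were called in either direction), at a median of 0.36. The scaling also bore on the direction: with total counts in place of TMM, which moved the median of all genes to -0.11, 19 members rose and 6 fell, and the members' median was 0.08. Of all 12678 genes, 5186 were called with total counts, and 1607 of these were higher.

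Loss of 1 U2af1 allele was compared with the same control. No member was called by edgeR (0 of 69, against 0.0316% of all genes), nor by DESeq2, and 2 members had an unadjusted p under 0.05 (8.83% of all genes). The median difference was -0.05 on the log2 scale, and the lowest adjusted p of a member was 0.380, for Mrps26. The median SE of a member's log2 difference was 0.07. Mrpl17 itself differed by 0.11 ± 0.07 and Mrpl12 by -0.13 ± 0.07.

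Set directly against the heterozygous deletion, the homozygous deletion had 34 members higher and 1 lower by edgeR's test, 50.7% of the members against 42.3% of all genes (19.8% higher, 22.4% lower). The large subunit had 23 higher and 1 lower, and the small subunit 11 higher. The median difference was 0.21 on the log2 scale. Mrpl41 led (43.6 to 49.8 CPM in the heterozygous libraries, 68.8 to 73.1 CPM in the homozygous ones), with a log2 fold change of 0.54 ± 0.06 and an edgeR adjusted p of 7.38e-05. Mrpl17 rose by 0.53 ± 0.07, Mrpl44 by 0.49 ± 0.06, Mrps23 by 0.47 ± 0.06 and Mrpl51, a protein found only in mitochondria, by 0.46 ± 0.06. Mrpl12 (0.29 ± 0.07), Mrps22 (0.30 ± 0.08) and Mrpl32 (0.35 ± 0.10) also rose here. The member that fell was Mrpl23, an exit tunnel protein, which was at 72.8, 64.5 and 65.6 CPM in the heterozygous and 61.4, 67.5 and 53.3 CPM in the homozygous deletion. Those libraries overlapped, and its log2 fold change was -0.21 ± 0.08 with an edgeR adjusted p of 0.05, just inside the threshold. With the neutrophil score as a covariate 0 members were called (185 of all genes) and 7 had an unadjusted p under 0.05. The median was then 0.16, and the median SE was 0.21 in place of 0.07. The number called was 23 without heterozygous replicate 4 and 23 without replicate 5. With total counts in place of TMM, 20 members rose and 6 fell, and of 5469 genes called 1564 were higher.

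For the S34F allele, the only control of the same batch was 1 Vav1-Cre library, so the fit took the spread from all 15 fetal libraries. No member was called by edgeR (0 of 69, against 0.372% of all genes) nor by DESeq2, and 4 had an unadjusted p under 0.05 (11.4% of all genes). The median difference was 0.02 on the log2 scale, and the members ranged from -0.32 to 0.29. Mrpl17 had 72.5 CPM in the control and 78.7, 79.2, 82.5 and 81.8 CPM in the S34F libraries, a difference of 0.17 ± 0.09. Mrpl12 had 184 CPM against 225, 191, 194 and 208 CPM (0.17 ± 0.11), and Mrpl3 had 87.7 CPM against 73.2, 75.5, 71.5 and 75.1 CPM (-0.23 ± 0.07). With 1 control library these are differences from that library.

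In adults the lowest dose stood highest. At 1250 ppm, 20 members rose against the untreated control and 0 fell by edgeR's test, 29.0% of the members against 11.4% of all 13338 genes (6.76% higher, 4.66% lower). The large subunit had 14 of 45 higher and the small subunit 6 of 24. The median difference was 0.26 on the log2 scale (0.24 without the members that overlap another gene), against 0.01 over all genes. Mrpl38, a large subunit protein found only in mitochondria, had 41.4, 47.5 and 67.9 CPM in the control and 81.3, 73.3, 75.5 and 84.6 CPM at 1250 ppm. The groups did not overlap, although control replicate 3 came close, and the log2 fold change was 0.59 ± 0.18 (edgeR adjusted p = 0.0470). Mrps12 had 31.0, 33.8 and 38.4 CPM against 52.3, 45.0, 48.5 and 54.7 CPM, a log2 fold change of 0.55 ± 0.13 (edgeR adjusted p = 0.0202). Mrpl54 rose by 0.54 ± 0.12, Mrpl2 by 0.48 ± 0.13 and Mrps34 by 0.48 ± 0.12. Mrpl58 (0.35 ± 0.09) and Mrps18a (0.41 ± 0.12) rose as well. Not called were Mrpl12 (0.46 ± 0.16), Mrps18b (0.35 ± 0.16), Mrps22 (0.27 ± 0.16), Mrpl44 (0.18 ± 0.08), Mrpl3 (0.00266 ± 0.11), Mrps15 (0.02 ± 0.09), Mrpl32 (-0.02 ± 0.10), Mrps30 (-0.04 ± 0.11) and Mrps18c (-0.18 ± 0.13). Of the related lists, 3 of 15 synthetases rose, and of 11 translation factors 2 rose and 1 fell. Polrmt rose among the 10 genes of mitochondrial DNA expression, and 0 of 27 assembly factors were called. Gadd45gip1 rose by 0.63.

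This count was lower whichever 1 of the 7 libraries was left out. It was 0 without 1250 ppm replicate 5, without control replicate 1 or without control replicate 2. It was 5 without 1250 ppm replicate 1, 7 without replicate 4 and 17 without replicate 3 of that dose, and 12 without control replicate 3. The members' median stayed between 0.15 and 0.31 in all alternatives. With the neutrophil score as a covariate the count was 11 (971 of all genes), at a median of 0.15. Neutrophil markers were not called in this comparison (0 of 3), but their median log2 fold change was -2.65. Their summed CPM was 607 to 1033 at 1250 ppm and 939 to 9298 in the control. B cell markers (4 of 4) and 4 of 6 macrophage markers rose and 3 of 4 mast and basophil markers fell. The summed macrophage CPM was lower at 1250 ppm (141 to 186) than in the control (347 to 448), but Vcam1 made up most of it. Mean Vcam1 was 121 CPM at 1250 ppm and 375 CPM in the control. The part of these other cells in the result was not tested.

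At 2500 and 10000 ppm no member was called by edgeR against the untreated control. At 2500 ppm 0 of 69 were called (0.487% of all genes) by edgeR and by DESeq2, 0 had an unadjusted p under 0.05 (15.2% of all genes), and the median difference was 0.02 on the log2 scale. At 10000 ppm 0 of 69 were called (1.27% of all genes) by edgeR and 4, all lower, by DESeq2. There 11 had an unadjusted p under 0.05, all lower (22.3% of all genes in either direction), and the median was -0.10. The difference was below 0 for 53 of 69 members (6665 of all 13338 genes). For 8 members (1369 of all genes) the 10000 ppm libraries lay wholly below the control. The lowest edgeR adjusted p there was 0.0607, for Mrpl19. The median SE was 0.11 at 10000 ppm and 0.10 at 2500 ppm. Without 10000 ppm replicate 3, 3 members were called lower. These 3 dose groups share 1 control, so their values are given side by side and not as independent results.

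**Figure D3:**
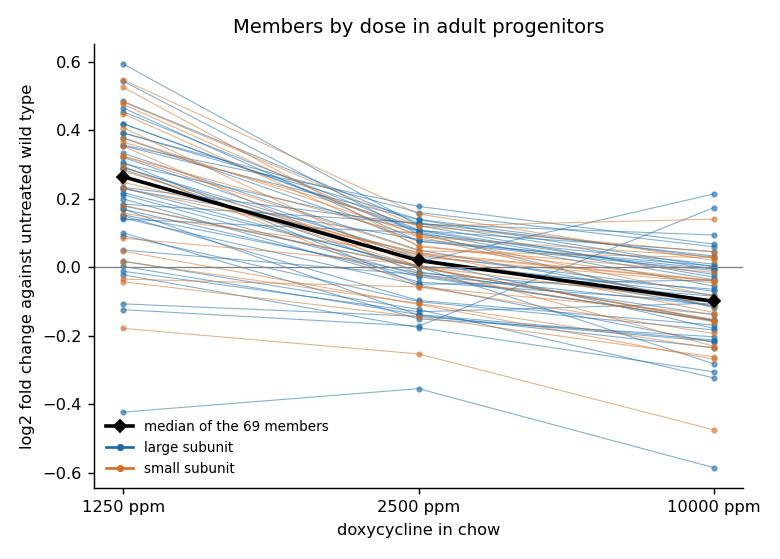
Log2 fold change against the untreated wild type (y axis) of each of the 69 members at 1250, 2500 and 10000 ppm doxycycline (x axis), with large subunit members in blue, small subunit members in orange and the median in black. The median goes from 0.26 to 0.02 to -0.10, and the 3 sets of values share the same 3 control libraries.

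The 10000 ppm group was set against the 1250 ppm group, with the same genotype and pIpC but different doses. By edgeR's test 46 members fell and 0 rose, 66.7% of the members against 18.1% of all genes (10.6% lower, 7.53% higher). The large subunit had 30 of 45 lower and the small subunit 16 of 24. The log2 difference was below 0 for 68 of 69 members, with a median of -0.34, both over all members and over the 38 without an exon overlap, against 0.02 over all genes.

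Mrpl38 had the largest fall, from 81.3, 73.3, 75.5 and 84.6 CPM at 1250 ppm to 45.4, 44.0, 50.8 and 63.9 CPM at 10000 ppm. The log2 fold change was -0.62 ± 0.17 (edgeR adjusted p = 0.0193). Mrps5, a small subunit protein with a bacterial counterpart, had 124, 110, 114 and 120 CPM at 1250 ppm and 72.4, 65.2, 82.2 and 90.1 CPM at 10000 ppm, a log2 fold change of -0.59 ± 0.11 (edgeR adjusted p = 0.00447). In both genes the groups did not overlap, and 10000 ppm replicate 4 came nearest to the lower dose. No overlap, with the higher dose below, held for 55 of the 69 members and for 13.8% of all genes.

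Mrps18a fell by 0.56 ± 0.11 on the log2 scale, Mrps6 fell by 0.54 ± 0.17 and Mrpl54 fell by 0.53 ± 0.11. Among the members of special role, Mrps12 fell by 0.53 ± 0.12, Mrps18b fell by 0.51 ± 0.14, Mrpl12 fell by 0.46 ± 0.15 and Mrpl44 fell by 0.46 ± 0.07. Mrpl58 fell by 0.35 ± 0.08, Mrps34 fell by 0.34 ± 0.11 and Mrpl32 fell by 0.28 ± 0.09. Of 18 alternatives in processing or libraries, the call was lost in 13 for each of Mrpl12, Mrps34 and Mrpl32. It was lost in 12 for Mrps6, in 10 for Mrps18b and in 6 for Mrpl38. For Mrps18a, Mrpl54, Mrps12 and Mrpl58 it was lost in 1, and for Mrpl44 and Mrps5 in 0. Differences that did not pass the test were -0.37 ± 0.15 for Mrps22, -0.30 ± 0.12 for Mrps18c, -0.25 ± 0.09 for Mrps15, -0.22 ± 0.10 for Mrps30 and -0.21 ± 0.10 for Mrpl3. Of the genes called lower here, 21 were among the 28 that rose in the homozygous deletion, which is 75% of the latter and 45.7% of the former. Over all 69 members 66.7% were called lower here, so the 75% lies near the members' own share. These comparisons share no library.

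Of the related lists, set beside the 10.6% of all genes called lower, synthetases and translation factors held the most calls. Of 15 synthetases 5 fell, among them Tars2, which fell by 0.49 ± 0.12, and Yars2, which fell by 0.41 ± 0.11. Of 11 translation factors 3 fell (Tsfm by 0.52 ± 0.12, Gfm1 by 0.47 ± 0.10 and Taco1 by 0.44 ± 0.13, as drops on the log2 scale). Of 27 assembly factors Rpusd4 and Dhx30 fell, and of 10 genes of mitochondrial DNA expression the RNA polymerase Polrmt fell by 0.51 ± 0.13. Gadd45gip1 fell by 0.61 ± 0.13, and 0 genes of these 5 lists rose.

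Neutrophil markers rose in the same comparison (3 of 3, median 4.48 on the log2 scale), as did megakaryocyte (4 of 4), T cell (2 of 2) and mature erythroid markers (2 of 3). The summed CPM of the neutrophil markers at 10000 ppm was 30799, 35072, 4942 and 652 in replicates 1 to 4, where the members summed to 3170, 2844, 3451 and 3470 CPM. In the 1250 ppm group the neutrophil sum was 607 to 1033 CPM and the member sum 3939 to 4314 CPM. Replicate 4 at 10000 ppm also had the lowest progenitor marker sum of the adult libraries, 17120 CPM against 26492 to 31968 CPM at 1250 ppm. Mpo made up most of these sums, with group means of 23181 CPM at 10000 ppm and 26318 CPM at 1250 ppm. As mean log2 CPM, the 9 progenitor markers ran from 8.66 to 8.94 at 10000 ppm and from 8.42 to 8.81 at 1250 ppm. With the neutrophil score as a covariate 6 members were called lower by edgeR (959 of all 13338 genes in either direction) and 24 had an unadjusted p under 0.05. The median difference was -0.17, and the median SE was 0.10 with and without the score. Differences between the groups made up 39.7% of the score's variance over the 17 adult libraries. Total counts in place of TMM gave 17 members lower (1783 of all genes called in either direction) and a median of -0.28. Leaving out 1 library at a time gave 20 (1250 ppm replicate 4 or 5), 22 (10000 ppm replicate 2), 23 (1250 ppm replicate 1), 27 (10000 ppm replicate 1), 29 (10000 ppm replicate 3) and 30 (1250 ppm replicate 3). Mature erythroid markers were at 709 CPM in 10000 ppm replicate 2 and at 12.5 to 19.3 CPM in the other 3, and the part of these other cells in the result was not tested.

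**Figure D4:**
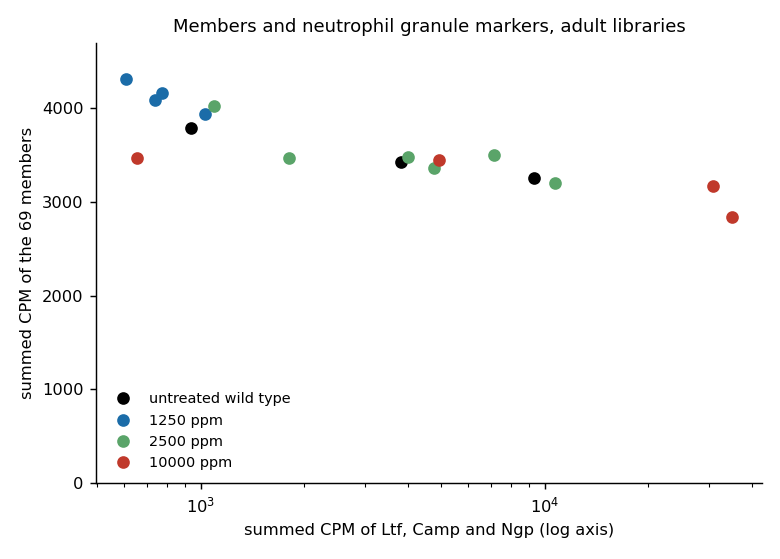
Summed CPM of the 69 members (y axis) against summed CPM of Ltf, Camp and Ngp (x axis, log scale) in the 17 adult libraries, coloured by group. The 2 libraries with the highest marker sums, both at 10000 ppm, have the members at 3170 and 2844 CPM, and the 10000 ppm library with the lowest marker sum (652 CPM) has 3470 CPM.

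A slope on log2 of the dose over the 14 dosed libraries was below 0 for 67 of the 69 members. By edgeR's test 19 members fell and 0 rose with dose, 27.5% of the members against 10.7% of all 12849 genes (5.32% lower, 5.39% higher). The median slope was -0.09 per doubling of dose on the log2 scale. The steepest called slopes were those of Mrpl38 (-0.17 ± 0.05), Mrps5 (-0.17 ± 0.04), Mrps18a (-0.16 ± 0.04), Mrps12 (-0.15 ± 0.04) and Mrpl54 (-0.14 ± 0.04). Mrps5 went from 110 to 124 CPM at 1250 ppm through 75.2 to 104 CPM at 2500 ppm to 65.2 to 90.1 CPM at 10000 ppm, so that neighbouring doses overlapped only between 2500 and 10000 ppm. The slope shares its libraries with the comparison of the extreme doses. Its count fell to 1 without 10000 ppm replicate 2, 1250 ppm replicate 1 or 1250 ppm replicate 5, to 2 without 1250 ppm replicate 4, and to 4 without 10000 ppm replicate 1 or 1250 ppm replicate 3. It was 11 without 2500 ppm replicate 3, 12 without 2500 ppm replicate 4 and 31 without 10000 ppm replicate 4. With the neutrophil score as a covariate it was 2 (431 of all genes), and with total counts 6 (871 of all genes).

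The widest difference was between fetal and adult controls. In the flox control 59 members were higher than in the untreated adult control and 1 was lower by edgeR's test, 87.0% of the members against 59.0% of all 12256 genes (30.0% higher, 29.0% lower). The large subunit had 37 of 45 higher and 1 lower, and the small subunit 22 of 24 higher. The median difference was 0.54 on the log2 scale, against -0.00397 over all genes. Stage, tissue, genotype and the Cre and transgene of the adults differed together here and cannot be told apart, and neutrophil markers were lower in the fetal libraries (134 to 317 CPM against 939 to 9298 CPM). Hepatocyte (8 of 9), mature erythroid (3 of 3), B cell (4 of 4), macrophage (6 of 7, 1 lower) and megakaryocyte markers (3 of 4) were higher in the fetal control, and their part in the result was not tested.

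Mrpl54 had the largest difference, with 117, 110 and 112 CPM in the fetal libraries and 45.1, 50.1 and 54.5 CPM in the adult ones. The groups lay far apart, with a log2 fold change of 1.17 ± 0.08 and an edgeR adjusted p of 0.000107. Mrps6 (1.04 ± 0.14), Mrpl38 (1.02 ± 0.18), Mrpl34 (0.97 ± 0.09) and Mrps18b (0.94 ± 0.14) followed. Mrpl12 was at 232, 250 and 243 CPM against 110, 116 and 149 CPM (0.94 ± 0.12). Mrps12 (0.88 ± 0.09), Mrps34 (0.77 ± 0.11), Mrps22 (0.70 ± 0.14), Mrpl58 (0.62 ± 0.06), Mrps15 (0.53 ± 0.07), Mrps18a (0.52 ± 0.10) and Mrpl32 (0.46 ± 0.06) were also higher, as were Mrpl3 (0.30 ± 0.08) and Mrps30 (0.29 ± 0.08). Differences of 0.10 ± 0.08 for Mrps18c and -0.07 ± 0.06 for Mrpl44 did not pass the test.

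Mrpl1, the counterpart of a bacterial stalk protein, was the member that was lower in the fetal control. It had 24.6, 27.4 and 26.2 CPM there and 36.8, 34.2 and 34.6 CPM in the adult control, without overlap, a log2 fold change of -0.45 ± 0.08 (edgeR adjusted p = 0.00285). With the 2 Vav1-Cre libraries (23.3 and 39.6 CPM) as the fetal group, 36 members were higher and 0 lower. Mrpl1 was also uneven among fetal groups, with 28.0, 39.9, 38.2 and 33.4 CPM in S34F libraries.

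**Figure D5:**
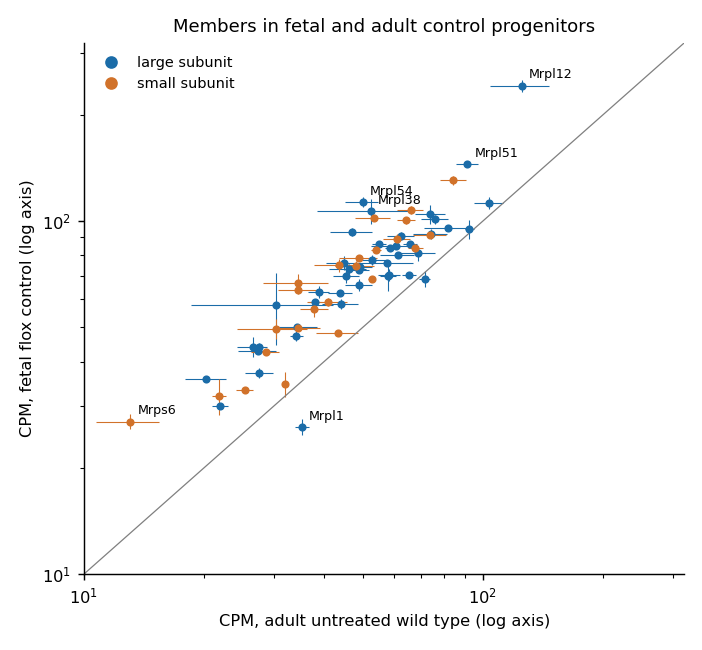
Mean CPM with SD in the fetal flox control (y axis, n = 3) against the untreated adult control (x axis, n = 3), both on log axes, for 68 members; Mrpl53, below 1 CPM, is left out and the line marks equal levels. Most points lie above the line, with Mrpl12 highest and Mrpl1 below it.

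Aminoacyl-tRNA synthetases (9 of 15 higher, 0 lower) and assembly factors (11 of 27 higher, 0 lower) were called only higher in the fetal control, where 30.0% of all genes were called higher and 29.0% lower. Translation factors were divided, with 4 higher, among them Tsfm (0.72 ± 0.14) and Mrrf (0.58 ± 0.08), and 3 lower, namely Guf1 (-0.63 ± 0.09), Mtrf1 (-0.49 ± 0.12) and Mtif2 (-0.29 ± 0.08). Of the genes of mitochondrial DNA expression 4 were higher, led by the helicase Twnk (0.71 ± 0.15), and Polg was lower (-0.46 ± 0.06). Gadd45gip1 was higher by 1.09 ± 0.10. Within the members, the difference went with GC content of the transcript, with a Spearman's rho of 0.54 over 69 genes. The corresponding rho was 0.61, 0.49 and 0.52 for 1250, 2500 and 10000 ppm against the same adult control, and -0.41 for 10000 against 1250 ppm, again as descriptions across genes that share libraries.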

How the data were processed

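The deposited values were raw counts per Ensembl gene for 32 libraries, made by the authors from reads aligned with HISAT2 2.1.0 to GRCm38, per the series' design text. The counting tool, strand setting and annotation release are not given in the sources used here. Symbols, lengths and overlaps came from GENCODE M21. Of 27728 gene IDs, 27668 had a symbol there. Library totals ran from 26.6 to 71.3 (in units of 1e+06 counts), which sets the counting error, and all 46 pairs of replicates exceeded it (chi-square per degree of freedom at least 3.85).

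Genes were kept with filterByExpr, scaled by TMM and tested in edgeR 4.0.16 (R 4.3.3) by the quasi-likelihood method. P-values were adjusted over all genes tested (Benjamini-Hochberg). The 3 genotypes of batch A, the 17 adult libraries, the 14 dosed libraries, and the 2 control groups were each 1 fit. S34F was fitted with all 15 fetal libraries and batch as a term. Scripts were tested on simulated data. Alternatives were DESeq2 1.42.0, RLE scaling, other filters, corrections for GC and length, a replicate block, other sets of libraries and leaving out each replicate. Added after seeing the data were the correction for GC, marker scores for neutrophils as a covariate, exon union lengths and total counts. Members and lists were chosen with earlier results of these data known. Named are the 5 members with the largest called rise and fall in each comparison, the 5 highest and 3 lowest per kb, members with special roles, and up to 3 called genes each way per list.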

Additional observations from a re-analysis of the deposited data

Results flagged for a closer look

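Among 120 sets of values (the members' sums, the ratio of the subunits and 26 members, in the 4 groups of 4 to 6 libraries), 8 held a library far from the rest, where chance flags about 1 in 20 sets, here 6. At 2500 ppm, replicate 4 had a member sum of 4027 CPM against 3198 to 3497 CPM in the other 5, a large subunit sum of 2780 CPM against 2190 to 2398 CPM, Mrps18b at 42.8 CPM against 30.1 to 33.6 CPM, and Mrps6 at 17.7 CPM against 11.2 to 13.6 CPM. That library also had the lowest neutrophil marker sum of its group, at 1092 CPM. Replicate 2 at 10000 ppm had a large to small subunit ratio of 2.27 against 2.17 to 2.18 in the other 3, and Mrps12 at 29.8 CPM against 35.8 to 37.0 CPM. It had the highest neutrophil marker sum, at 35072 CPM. Replicate 5 at 1250 ppm had Mrpl51 at 127 CPM against 109 to 110 CPM, and S34F replicate 2 had Mrpl43 at 57.1 CPM against 60.5 to 60.9 CPM. The part of other cells in these values was not tested.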

How the results depend on the processing

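The members' median kept its direction under every alternative for homozygous deletion against flox control (0.08 to 0.36 on the log2 scale) and against heterozygous deletion (0.09 to 0.31), 1250 ppm against wild type (0.15 to 0.31), 10000 against 1250 ppm (-0.35 to -0.17), 10000 ppm against wild type (-0.14 to -0.01), the slope on dose (-0.15 to -0.04) and fetal against adult control (0.41 to 0.58). It took both signs for heterozygous deletion against flox control (-0.08 to 0.04), 2500 ppm against wild type (-0.04 to 0.08) and S34F (-0.02 to 0.06).

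The number of members called moved as follows, and the cause was not tested. Parentheses give the number of all genes called in either direction. With total counts it was 17 for 10000 against 1250 ppm (1783 of 13338) and 11 for 1250 ppm against wild type (1106). For the slope it was 6 (871 of 12849). Without a filter the first 2 of these were 23 and 5 (1533 and 702 of 25647). With only the compared groups they were 23 (1052 of 12177) and 31 (3165 of 12170). With the GC correction it was 13 for 1250 ppm against wild type (1035 of 13324) and 35 for the slope (1991 of 12842). DESeq2 gave 4 for 10000 ppm against wild type (1055 of 13338) and 32 for the slope (2227 of 12849). The rank of the dose gave 33 for the slope (2069). With the neutrophil score it was 0 for homozygous deletion against flox control (684 of 12678) and against heterozygous deletion (185). With that score it was also 6 for 10000 against 1250 ppm (959 of 13338) and 2 for the slope (431 of 12849). For 10000 and 1250 ppm against wild type it was 3 and 11 (1246 and 971 of 13338). The hepatocyte score gave 13 for homozygous deletion against flox control (1197 of 12678), and Vav1-Cre libraries as the fetal group 36 (4495 of 12594).

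Leaving out 1 library gave 21 to 32 for homozygous deletion against flox control, 23 to 42 against heterozygous deletion, 0 to 1 for heterozygous deletion against flox control (1 without flox replicate 3), 20 to 44 for 10000 against 1250 ppm, 0 to 3 and 0 to 17 for 10000 and 1250 ppm against wild type, 1 to 31 for the slope and 54 to 62 for fetal against adult control. S34F and 2500 ppm stayed at 0 in all alternatives run.

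Replicate numbers were also fitted as a replicate block. This gave 17 members for homozygous deletion against flox control (4049 of all 12678 genes) and 26 against heterozygous deletion (4325). It gave 23 for 10000 against 1250 ppm (1184 of 13338) and 0 for 1250 ppm against wild type (438). For the slope it gave 0 (33 of 12849). Correlations of same-numbered libraries ran from -0.24 to 0.07 over 7 fetal pairs (median 0.01) and from -0.23 to 0.51 over 19 adult pairs (median -0.01). Not every pair exceeded 0.1, so the numbers were not taken to pair the libraries, although the highest pair (10000 and 2500 ppm replicates 4) exceeded every differently numbered adult pair (at most 0.30). No paired analysis was possible for S34F within batch B and for fetal against adult control because the libraries compared share fewer than 2 numbers.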
